A study of Mus musculus with 12 samples.

Results

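Plasmacytoid dendritic cells were followed through 10 genes that mark them: Siglech, Ccr9, Ly6d, Tcf4, Bcl11a, Spib, Runx2, Pacsin1, Klk1 and Cox6a2. The genes were taken by symbol from a count table of 24499 gene symbols. All 10 were present, and all 10 were among the 10714 genes that passed the filter on low counts. The libraries came from APOE-KO mice, which lack apolipoprotein E, and from wildtype C57BL6 mice. Both genotypes carried tumours grown from E0771-cOC, a derivative of the E0771 line of mouse mammary cancer, so no node came from a tumour-free animal. Tumor-draining lymph nodes were taken on day 9 after injection, digested to single cells and enriched on CD11c beads. There were 6 APOE-KO and 6 wildtype libraries, read from the 3' end of polyadenylated RNA. The sources used here give neither the allele and strain background of the APOE-KO mice nor the age of the animals. The labels do not say whether each library is a different animal, and the p-values therefore cover only the spread among these libraries, part of which may be technical.

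Plasmacytoid dendritic cells are the dendritic cells specialised in making type I interferon. They sense viral and self nucleic acids through the endosomal receptors TLR7 and TLR9, which signal through MYD88 to the transcription factor IRF7. Their identity depends on the E protein TCF4, also called E2-2, and is opposed by ID2, which drives conventional dendritic cell fates. In the mouse they carry less CD11c on the surface than conventional dendritic cells and live in lymph nodes, spleen and bone marrow.

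Library totals ran from 2381477 to 4898360 counts, and 3 counts in a library stood for 0.525 to 1.59 CPM, the unit of every level below (counts relative to the scaled library size). The level of Apoe was 5.81 ± 2.95 CPM in APOE-KO and 481 ± 45.7 CPM in wildtype (SD, n = 6 each). Itgax, which encodes the bead target CD11c, stood at 298 ± 36.9 CPM in APOE-KO and 278 ± 54.0 CPM in wildtype, with an adjusted p of 0.841. Bead enrichment leaves other cells in the sample, and their markers are given with the results. Wildtype libraries 1 and 3 stood apart from the rest. The total of wildtype library 1 was the lowest, with 32.2% of its counts in the ribosomal RNA gene Rn45s. That of wildtype library 3 was the highest, with 2.71% of its counts in Rn45s.

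All 10 genes had a lower fitted level in APOE-KO, and 5 of them fell at an adjusted p under 0.05: Siglech, Klk1, Cox6a2, Runx2 and Bcl11a. Over all tested genes, 44 of 10714 (0.411%) fell at that threshold and 1.49% passed in either direction. The 10 genes and the gene lists below were chosen with earlier results of these data known, so such shares are given as a description. The test was edgeR's quasi-likelihood test with Benjamini-Hochberg adjustment over the 10714 genes. The median log2 fold change, APOE-KO over wildtype, was -0.61 over the 10 genes and -0.02 over all tested genes, of which 52.8% had a negative value. Groups did not overlap for Runx2 and Klk1, and 0.541% of tested genes had every APOE-KO library below every wildtype library. Without wildtype library 1, Siglech, Runx2 and Klk1 still passed, while 0.311% of the tested genes fell. Runx2 and Klk1 still did not overlap, as held for 0.859% of the genes tested without that library. The median over the 10 genes was then -0.52, and all 10 values stayed negative. In bulk RNA of this kind, fewer cells of a type and less RNA per cell cannot be told apart.

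**Figure D1:**
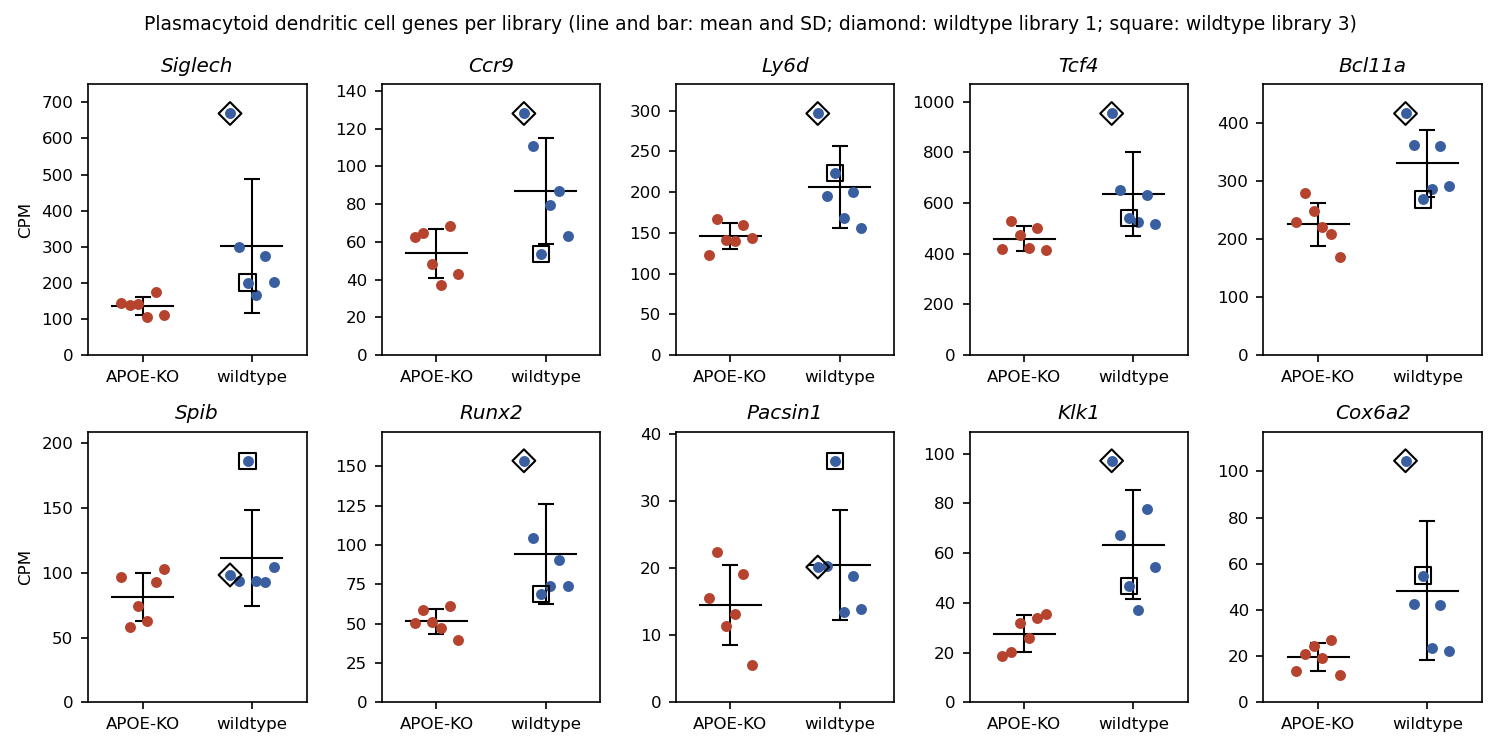
Level of each of the 10 genes in CPM (vertical axis, from 0) in 6 APOE-KO libraries (left, red) and 6 wildtype libraries (right, blue). Each point is a library, and lines and bars give the mean and SD. Wildtype library 1 (diamond) is the highest library for 8 genes and wildtype library 3 (square) for Spib and Pacsin1.

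Siglech encodes Siglec-H, a sialic acid-binding surface lectin that signals through the adaptor TYROBP and is used to recognise these cells in the mouse. In the APOE-KO libraries its lowest, median and highest levels were 106, 140.4 and 176 CPM, against 165, 239 and 669 CPM in the wildtype libraries. Of the 6 APOE-KO libraries, 5 lay below the lowest wildtype library, and the highest, APOE-KO library 5, lay above it. The level was 2.20-fold lower in APOE-KO, at a log2 fold change of -1.14 ± 0.24 (SE; adjusted p = 0.0133). The value of 669 CPM belonged to wildtype library 1, and the other wildtype libraries held 165 to 298 CPM. Without that library the fall was 1.68-fold, at -0.75 ± 0.16 (SE), with an adjusted p of 0.0195. The spread in wildtype was also set by that library, with a coefficient of variation of 61.8% with it and 24.3% without it, against 18.5% in APOE-KO.

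The chemokine receptor gene Ccr9, whose product guides cells to the gut and thymus and is carried by plasmacytoid dendritic cells and by developing T cells, did not pass. Its levels were 37.4, 55.3 and 68.6 CPM in APOE-KO (lowest, median, highest), against 53.5, 83.2 and 128 CPM in wildtype. The log2 fold change was -0.67 ± 0.20 (SE), with an adjusted p of 0.110. Groups overlapped in the range of 53.5 to 68.6 CPM. Without wildtype library 1 the log2 fold change was -0.54 ± 0.20 (SE), with an adjusted p of 0.258. Ccr9 passed in 1 of the 12 fits without 1 library. That fit left out wildtype library 3, the lowest wildtype library (adjusted p = 0.0256).

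Ly6d, a GPI-anchored surface protein of lymphoid progenitors, B cells and plasmacytoid dendritic cells, had 123, 143 and 167 CPM in APOE-KO, against 156, 198 and 296 CPM in wildtype. The groups overlapped through 2 APOE-KO libraries above the lowest wildtype library. Its log2 fold change of -0.50 ± 0.15 (SE) had an adjusted p of 0.100. Without wildtype library 1, the highest library, the value was -0.37 ± 0.13 (SE), with an adjusted p of 0.233. Of the 3 surface genes, Siglech alone passed the test.

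Among the transcription factors, Runx2 fell with groups that did not overlap. Runx2 is the factor of bone formation and is also used by plasmacytoid dendritic cells to leave the bone marrow. The 6 APOE-KO libraries held 39.4, 50.6 and 61.4 CPM (lowest, median, highest), and the 6 wildtype libraries 68.7, 82.3 and 153 CPM. The fall was 1.82-fold, at a log2 fold change of -0.86 ± 0.19 (SE; adjusted p = 0.0134). Wildtype library 1 was again the highest. Without it the fall was 1.60-fold, with an adjusted p of 0.0343, and the groups still did not overlap.

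Bcl11a encodes a zinc finger repressor needed for B cells and for plasmacytoid dendritic cells, where it acts upstream of TCF4. Its levels were 169, 225 and 278 CPM in APOE-KO, against 268, 325 and 416 CPM in wildtype, and only APOE-KO library 2 reached into the wildtype range. The fall was 1.46-fold, at a log2 fold change of -0.55 ± 0.14 (SE; adjusted p = 0.0435). Leaving out 1 library at a time, Bcl11a passed in 3 of 12 fits (without wildtype library 3, wildtype library 4 or APOE-KO library 2), and the adjusted p reached 0.140 without APOE-KO library 6. Without wildtype library 1 the adjusted p was 0.102.

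Tcf4, the E protein gene that defines the lineage and is also active in B cells and stroma, was the most abundant of the 10 genes by read count. It had 414, 449.5 and 529 CPM in APOE-KO, against 519, 587 and 954 CPM in wildtype. Of the APOE-KO libraries, 5 lay below the lowest wildtype library. The log2 fold change was -0.47 ± 0.14 (SE), and the adjusted p of 0.107 did not pass. Without wildtype library 1 the value was -0.32 ± 0.12, with an adjusted p of 0.250.

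Spib, an Ets factor shared by plasmacytoid dendritic cells and B cells, showed the smallest fitted difference of the 10 genes. Its levels were 58.3, 83.5 and 103 CPM in APOE-KO, against 93.2, 96.0 and 186 CPM in wildtype. The log2 fold change was -0.46 ± 0.19 (SE), with an adjusted p of 0.304. The wildtype maximum was library 3, and the other wildtype libraries lay close together. Over the 12 fits without 1 library the log2 fold change of Spib ran from -0.54 to -0.23, and 0 passed.

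Klk1, a tissue kallikrein (a serine protease that releases kinins, best known from salivary gland and kidney), had the smallest p of the 10 genes. The APOE-KO libraries held 18.5, 28.9 and 35.6 CPM (lowest, median, highest), and the wildtype libraries 37.3, 60.8 and 97.2 CPM. Every APOE-KO library lay below every wildtype library. The fall was 2.27-fold, at a log2 fold change of -1.18 ± 0.23 (SE), with an adjusted p of 0.00456. Without wildtype library 1 it was 2.04-fold, with an adjusted p of 0.0158.

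Cox6a2 encodes the heart and skeletal muscle form of a cytochrome c oxidase subunit, a form that mouse plasmacytoid dendritic cells also express. Levels were 11.7, 20.2 and 27.1 CPM in APOE-KO, against 22.4, 42.5 and 105 CPM in wildtype. Groups overlapped between 22.4 and 27.1 CPM. The fall was 2.46-fold, at a log2 fold change of -1.30 ± 0.31 (SE), with an adjusted p of 0.0273. The call ended without wildtype library 1 (adjusted p = 0.0941, log2 fold change -0.94) and also without APOE-KO library 1, 4 or 6. The ubiquitous form of the subunit, Cox6a1, had 283 ± 23.3 CPM in APOE-KO and 251 ± 22.7 CPM in wildtype (SD, n = 6 each), with an adjusted p of 0.600.

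Pacsin1, a membrane-bending adaptor protein of neurons that plasmacytoid dendritic cells use in their interferon response, was the least covered of the 10 genes, with 320 reads over the APOE-KO libraries and 480 over the wildtype libraries. Its levels were 5.51, 14.4 and 22.4 CPM in APOE-KO, against 13.4, 19.5 and 36.0 CPM in wildtype. The log2 fold change of -0.51 ± 0.31 (SE) did not pass (adjusted p = 0.547), and the groups overlapped broadly. Over the 12 fits without 1 library that value ran from -0.67 to -0.24, and 0 passed.

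**Figure D2:**
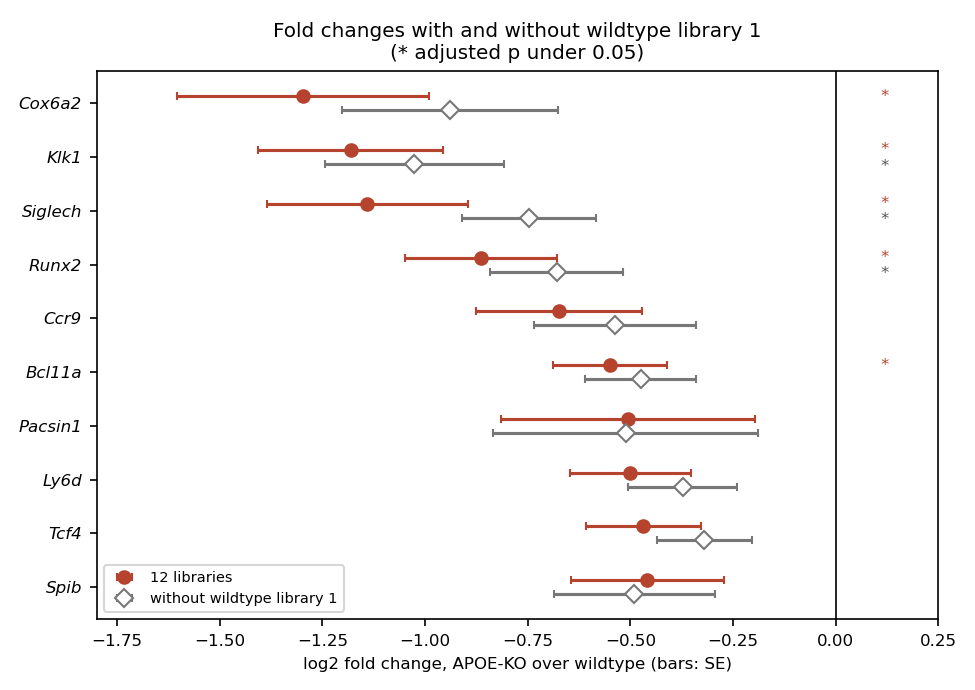
Log2 fold change, APOE-KO over wildtype, of the 10 genes with bars of 1 SE, in all 12 libraries (filled circles) and without wildtype library 1 (open diamonds). Stars mark an adjusted p under 0.05. All values are negative, from -0.46 for Spib to -1.30 for Cox6a2, and leaving out the library brings 8 of the 10 closer to 0.

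Where these genes lie was read from GENCODE vM21 on GRCm38, the assembly that mm10 also names. Siglech, Klk1, Spib and Cox6a2 are on chromosome 7, as is Apoe, at 36.1, 24.5, 24.8 and 108.5 Mb from it. Siglech spans chr7:55768178-55778925 on the plus strand, Klk1 chr7:44225360-44229618 on the plus strand and Cox6a2 chr7:128205435-128206387 on the minus strand. Runx2 spans chr17:44495987-44814797 on the minus strand and Bcl11a chr11:24078056-24174123 on the plus strand. All are protein-coding genes. Cox6a2 is overlapped on the other strand by Itgad, which no library covered with more than 4 reads. Runx2 is overlapped on the other strand by Supt3, at 26.2 ± 6.60 CPM in APOE-KO and 26.5 ± 7.64 CPM in wildtype (SD, n = 6 each), with an adjusted p of 0.993. Ccr9 shares its locus with Lztfl1 on the other strand, at 15.9 ± 8.90 CPM in APOE-KO and 14.9 ± 1.80 CPM in wildtype (adjusted p = 0.958). Runx2, Klk1 and Bcl11a are also overlapped on the other strand by noncoding or predicted genes. No source used here says whether the counting used strand, so reads of such pairs may have been mixed. Klk1 belongs to a family of near-identical kallikrein genes that could share reads. Of 13 Klk1b genes in the table, 9 had no read and 3 had 1 to 9 reads in all. Klk1b27, named after its values were seen, had 130 reads over APOE-KO and 253 over wildtype (adjusted p = 0.286).

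RefSeq promoter windows on GRCm38.p6 were at hand for 7 of the 10 genes and not for Ly6d, Tcf4 and Cox6a2. The 250 bases before the RefSeq start are shown for the 4 genes that fell and had a window. TCF4 and RUNX2, both encoded among the 10 genes, are factors whose core letters can be searched in those bases. A RefSeq start can differ from the end of the GENCODE span given above. The Bcl11a window lies inside the span of its gene, and the Runx2 and Siglech windows reach into theirs. Capitals mark CANNTG, the E-box core bound by E proteins such as TCF4, and TGTGGT, the core bound by RUNX factors, on either strand (ACCACA on the reverse).
Siglech, chr7:55767934-55768183, plus strand: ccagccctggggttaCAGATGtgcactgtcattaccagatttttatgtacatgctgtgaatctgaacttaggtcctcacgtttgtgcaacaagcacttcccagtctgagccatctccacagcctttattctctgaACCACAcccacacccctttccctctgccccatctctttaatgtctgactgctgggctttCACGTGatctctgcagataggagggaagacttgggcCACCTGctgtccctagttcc
Klk1, chr7:44225110-44225359, plus strand: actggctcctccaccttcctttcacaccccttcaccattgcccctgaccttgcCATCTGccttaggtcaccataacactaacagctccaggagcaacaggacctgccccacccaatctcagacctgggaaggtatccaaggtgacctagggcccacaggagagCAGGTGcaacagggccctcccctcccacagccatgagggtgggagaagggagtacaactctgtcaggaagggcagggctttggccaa
Runx2, chr17:44814628-44814877, minus strand: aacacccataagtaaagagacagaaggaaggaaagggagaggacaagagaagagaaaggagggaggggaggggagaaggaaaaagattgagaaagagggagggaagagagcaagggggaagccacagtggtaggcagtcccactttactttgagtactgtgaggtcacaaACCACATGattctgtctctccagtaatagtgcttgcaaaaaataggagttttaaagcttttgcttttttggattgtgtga
Bcl11a, chr11:24080445-24080694, plus strand: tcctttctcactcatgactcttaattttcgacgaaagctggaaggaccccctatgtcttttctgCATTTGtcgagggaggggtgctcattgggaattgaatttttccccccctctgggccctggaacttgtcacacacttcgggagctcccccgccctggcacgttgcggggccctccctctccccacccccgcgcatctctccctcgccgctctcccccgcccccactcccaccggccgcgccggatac
Siglech held 3 E-box cores, Klk1 held 2, and Runx2 and Bcl11a held 1 each. The E-box core of Runx2 overlaps its RUNX core, so both stand in a single run of capitals. Over the 7 windows, 6 held CANNTG, as did 66.2% of the 32851 windows of that length in the table. The RUNX core was in 3 of the 7 windows (Siglech, Runx2 and Pacsin1) and in 14% of all windows. The core GAGGAA, read by Ets factors such as Spi-B, was in 0 of the 7 and in 23.3% of all windows. These are matches of letters and not measured binding sites.

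The 10 genes did not vary as a single block between libraries. Wildtype library 1 was the highest of the 12 libraries for 8 genes, and wildtype library 3 for the other 2, Spib and Pacsin1. Within wildtype, library 1 deviated from the genotype mean by a median of 0.62 on the log2 scale, and library 6 by a median of -0.33. Among APOE-KO libraries, library 6 was the lowest of all 12 for 5 genes, with a median deviation of -0.28 from its genotype mean, while library 5 lay above that mean for 9 genes. Summed over the 10 genes, the level ran from 1075 to 1359 CPM in APOE-KO and from 1464 to 2937 CPM in wildtype, or to 1947 CPM without wildtype library 1. These sums did not overlap between the genotypes with or without that library. They are dominated by Tcf4, Siglech and Bcl11a.

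**Figure D3:**
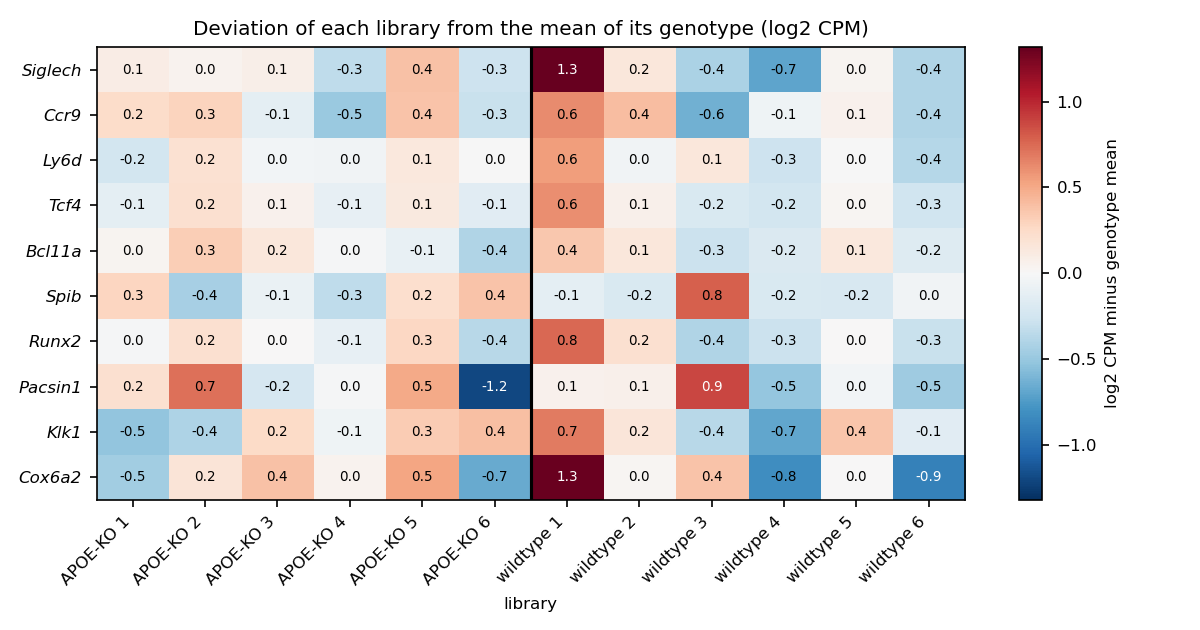
Deviation of each library (columns, APOE-KO left of the line and wildtype right) from the mean of its own genotype, in log2 CPM, for the 10 genes (rows). Red is above the mean and blue below. Wildtype library 1 is above the mean for 9 of the 10 genes, all but Spib, and only slightly so for Pacsin1, and wildtype library 3 stands out for those 2 genes.

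As a description of which genes follow them, the deviations of every other tested gene were compared with the mean deviation of the 10 genes over the 12 libraries. The 8 closest genes, predicted genes left out, were Spop, Tmem198b, Gbf1, Ift80, Dntt, Nsmce2, Ctnnd2 and Fcer2a, with Pearson r of 0.878 to 0.907. All values of a library share its depth and scaling factor. Without wildtype library 1, only Tmem198b remained among the closest 8, so the list rests on that library. Dntt, the template-independent DNA polymerase that plasmacytoid dendritic cells share with lymphoid progenitors, held 36.1 CPM in wildtype library 1 and at most 15.7 CPM in the other wildtype libraries. Of the 10 genes themselves, Siglech and Cox6a2 lay closest to the mean (r = 0.933 and 0.93, each part of that mean), and Spib did not follow it (r = -0.0725).

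A further 31 genes known from plasmacytoid dendritic cells, many of them shared with other cells, were examined beside the 10. Of these 29 were tested, 4 fell (0.411% of all tested genes fell) and 1 rose (1.08% of all tested genes rose). The median log2 fold change was -0.32, with 24 of 29 negative. Summed over the 31 genes, the level ran from 4118 to 5077 CPM in APOE-KO and from 4750 to 7575 CPM in wildtype. Without wildtype library 1 the wildtype sums reached 5238 CPM. Unlike the sums of the 10 genes, these overlapped between the genotypes with or without that library. The genes that fell were Cd209d, a C-type lectin (71.3 ± 16.7 CPM in APOE-KO and 137 ± 29.0 CPM in wildtype, adjusted p = 0.00245), Nucb2, a calcium-binding protein (38.4 ± 10.7 CPM in APOE-KO and 71.0 ± 18.8 CPM in wildtype, adjusted p = 0.0209), Lifr, the leukaemia inhibitory factor receptor (31.9 ± 13.5 CPM in APOE-KO and 72.9 ± 24.3 CPM in wildtype, adjusted p = 0.0223), and Cd7, an immunoglobulin family surface protein of lymphoid cells (23.6 ± 7.87 CPM in APOE-KO and 46.0 ± 13.7 CPM in wildtype, adjusted p = 0.0276; SD, n = 6 each). Groups did not overlap for Cd209d and Nucb2, nor for Tspan13, which did not pass (adjusted p = 0.144). Of all tested genes, 0.541% had every APOE-KO library below every wildtype library.

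Without wildtype library 1, Cd209d, Cd7 and Irf7 alone of the 31 passed, and the median over the list was -0.19. The calls of Lifr, Nucb2 and Cd7 each ended in 5 or 6 of the 12 fits without 1 library, with adjusted p up to 0.0664, 0.0591 and 0.0806, whereas Cd209d and Irf7 passed in all 12. Several genes that these cells express strongly did not pass. Bst2, which encodes the PDCA-1 antigen, had 372 ± 54.2 CPM in APOE-KO and 404 ± 134 CPM in wildtype (adjusted p = 0.848). Irf8, a factor shared with cDC1 cells, had 1653 ± 301 CPM in APOE-KO and 2063 ± 536 CPM in wildtype (adjusted p = 0.376), and wildtype library 1 held 3117 CPM of it. Ly6c2, Plac8, Pld4 and Ptprs did not pass either (adjusted p of 0.931, 0.614, 0.834 and 0.941).

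**Figure D4:**
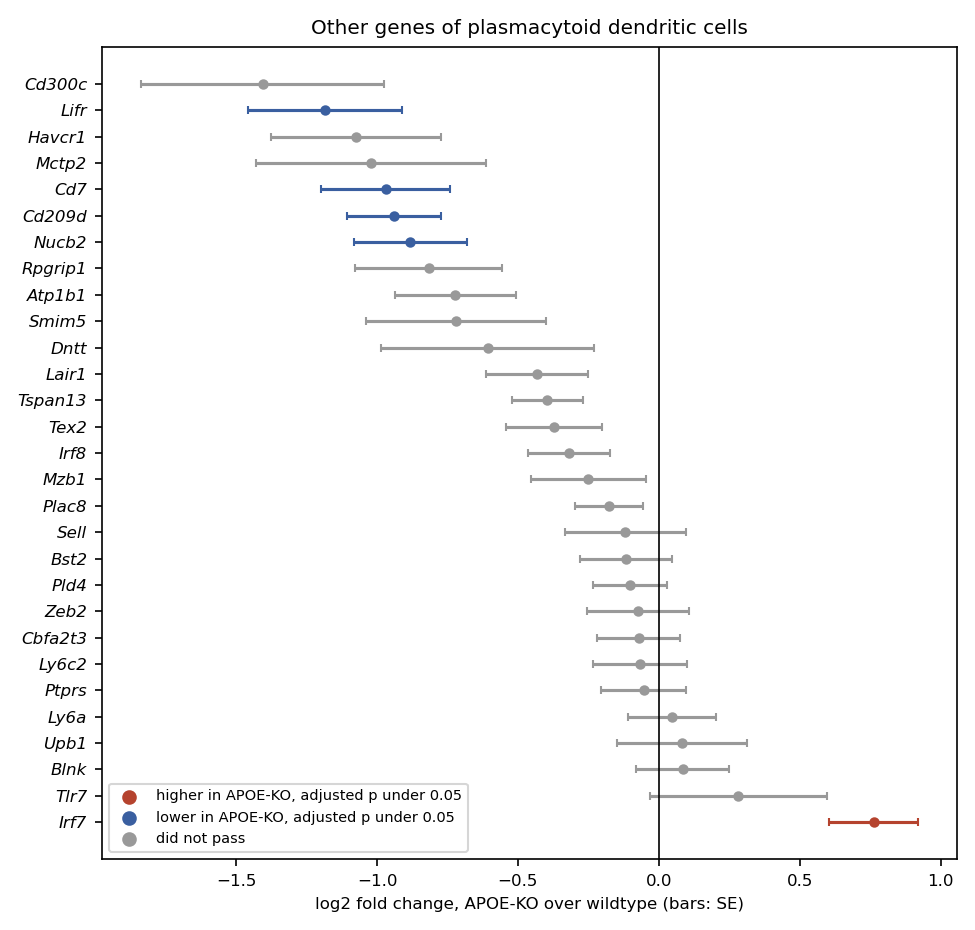
Log2 fold change, APOE-KO over wildtype, with bars of 1 SE, of the 29 tested genes of the further list. Blue marks the 4 genes that fell and red the 1 that rose at an adjusted p under 0.05, and grey the rest. Most points lie left of 0, and Irf7 lies apart at 0.76.

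The gene that rose was Irf7, the transcription factor by which these cells switch on interferon genes, which many other cells also induce in response to interferon. It had 85.8 ± 15.3 CPM in APOE-KO and 50.6 ± 6.91 CPM in wildtype (SD, n = 6 each), 1.70-fold higher, with an adjusted p of 0.00989. The groups overlapped by a small margin, 59.0 CPM in the lowest APOE-KO library and 59.3 CPM in the highest wildtype library. In a list of 15 genes of endosomal nucleic acid sensing, of which 14 were tested, Irf7 was the 1 gene that passed. The next by p were Traf6, a signalling ubiquitin ligase (47.2 ± 8.34 CPM in APOE-KO and 34.0 ± 5.76 CPM in wildtype, adjusted p = 0.230), and the kinase gene Ikbke (20.3 ± 2.49 CPM in APOE-KO and 14.6 ± 4.30 CPM in wildtype, adjusted p = 0.454). The receptor gene Tlr7 had 16.2 ± 4.35 CPM in APOE-KO and 13.5 ± 6.10 CPM in wildtype (adjusted p = 0.802). Tlr9 held 8 reads over APOE-KO and 19 over wildtype and was not tested. Tyrobp, the adaptor of Siglec-H, had 485 ± 25.2 CPM in APOE-KO and 495 ± 64.6 CPM in wildtype (adjusted p = 0.959).

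No read fell on any of 19 interferon ligand genes, among them 13 interferon alpha genes, Ifnb1, Ifnl2 and Ifnl3, in any library. At this depth a count of 0 allows up to 0.525 to 1.59 CPM per library. Of the 4 tested receptor genes none passed in edgeR, and 2 had an unadjusted p under 0.05. Over all tested genes, 1294 of 10714 had such a p, 672 higher and 622 lower. Il10rb had 84.95 ± 12.8 CPM in APOE-KO and 61.0 ± 9.42 CPM in wildtype (adjusted p = 0.148). Ifnlr1, the interferon lambda receptor, had 10.9 ± 3.98 CPM in APOE-KO and 5.39 ± 3.00 CPM in wildtype (adjusted p = 0.407). For Ifnar1 the values were 130 ± 23.6 CPM in APOE-KO and 143 ± 27.8 CPM in wildtype (adjusted p = 0.815).

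Partners and opponents of the lineage factors were listed as 27 genes, of which 26 were tested. None passed in edgeR, while 8 had an unadjusted p under 0.05, 3 higher and 5 lower, and DESeq2 called 2 and limma-voom 1. Over all 10714 tested genes, 1294 had such a p, 672 higher and 622 lower, and DESeq2 called 274 and limma-voom 167. Runx3, a relative of Runx2, had 253 ± 31.9 CPM in APOE-KO and 349 ± 36.2 CPM in wildtype, with groups that did not overlap and an adjusted p of 0.0547. Id2, the inhibitor that opposes TCF4, had 1158 ± 211 CPM in APOE-KO and 834 ± 122 CPM in wildtype, a log2 fold change of 0.47 ± 0.13 (SE), with an adjusted p of 0.0733. Ikzf3, a lymphoid zinc finger factor, had 32.0 ± 4.22 CPM in APOE-KO and 46.0 ± 7.97 CPM in wildtype (adjusted p = 0.172). The other E protein genes were Tcf12, at 53.2 ± 12.1 CPM in APOE-KO and 71.0 ± 3.45 CPM in wildtype (adjusted p = 0.245), and Tcf3, at 47.9 ± 10.9 CPM in APOE-KO and 49.6 ± 7.77 CPM in wildtype (adjusted p = 0.957). Relatives of other members that did not pass were Spi1, Bcl11b, Runx1 and Pacsin2, with adjusted p of 0.227, 0.905, 0.682 and 0.804.

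Several of the 10 genes are also expressed outside plasmacytoid dendritic cells, and markers of those cells moved with them in part. Bcl11a, Spib, Tcf4 and Ly6d are B cell genes too. Of 16 tested B cell markers 2 fell, Fcer2a (84.2 ± 15.7 CPM in APOE-KO and 136 ± 39.8 CPM in wildtype, adjusted p = 0.0470) and Ralgps2 (134 ± 33.3 CPM in APOE-KO and 216 ± 56.4 CPM in wildtype, adjusted p = 0.0454), and 12 of 16 had a negative log2 fold change. Each of the 2 passed in 4 of the 12 fits without 1 library, and neither passed without wildtype library 1. Summed over 17 B cell markers, the level was 1075 to 1401 CPM in APOE-KO and 1457 to 1725 CPM in wildtype, with no overlap. In wildtype library 1 that sum was 1502 CPM, inside the range of the other wildtype libraries. With the mean of the B cell markers as a covariate, Klk1 and Cox6a2 passed and Siglech, Runx2 and Bcl11a did not. Their fitted log2 fold changes of -1.30, -0.87 and -0.50 in that fit compare with -1.14, -0.86 and -0.55 without the covariate. Because the B cell mean itself was lower in APOE-KO, covariate and genotype cannot be fully told apart.

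Over all tested genes, 1294 of 10714 had an unadjusted p under 0.05, the share to set beside such counts here and below. Epithelial markers were also lower in APOE-KO. Summed over 20 genes they ran from 45.8 to 136 CPM in APOE-KO and from 124 to 222 CPM in wildtype. Of 9 tested members 1 fell, Cdh1, an adhesion protein of epithelia that dendritic cells also carry (16.4 ± 7.71 CPM in APOE-KO and 39.0 ± 12.1 CPM in wildtype, adjusted p = 0.0172), and all 9 were negative, 7 at an unadjusted p under 0.05, with 3 called by limma-voom. With their mean as a covariate, 0 of the 10 genes passed in edgeR, 8 had an unadjusted p under 0.05, and all 10 stayed negative, with a median log2 fold change of -0.83. That mean, in log2 CPM, ran from 1.02 to 3.63 in APOE-KO and from 3.36 to 4.22 in wildtype, so the covariate nearly followed the genotype and the 2 cannot be fully told apart. Salivary gland markers bear on Klk1, a gene of that gland. Of 20 such genes 8 had no read in any library, and the sum ran from 24.4 to 232 CPM in APOE-KO and from 139 to 285 CPM in wildtype. Most of that sum came from Slc12a2 and Prlr, so it says little of the other genes listed. Slc12a2 had 46.1 ± 36.9 CPM in APOE-KO and 111 ± 47.5 CPM in wildtype (SD, adjusted p = 0.0738). Prlr had 24.7 ± 43.0 CPM in APOE-KO and 68.0 ± 21.6 CPM in wildtype (SD, adjusted p = 0.416). All 4 tested genes were negative, with a median log2 fold change of -2.20, and 3 had an unadjusted p under 0.05. In edgeR 1 fell, Bpifb2 (1.84 ± 2.63 CPM in APOE-KO and 14.5 ± 3.85 CPM in wildtype, adjusted p = 0.0182, or 0.0501 without wildtype library 5). Aqp5, a water channel of secretory glands, had 1.29 ± 2.38 CPM in APOE-KO and 10.3 ± 3.81 CPM in wildtype (adjusted p = 0.0562). Limma-voom called all 4, and 2 passed in edgeR without wildtype library 1, Bpifb2 and Slc12a2. DESeq2 called 0 and gave no adjusted p for 3 of the 4. Klk1b22 and Klk1b24, kallikreins of that gland, were at 0. The part of these cells in the results on Klk1 was not tested.

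Skeletal muscle markers bear on Cox6a2. Their sum over 20 genes was 227 to 345 CPM in APOE-KO and 200 to 273 CPM in wildtype, and the 1 of 5 tested genes that passed was Eno3, a muscle enolase that rose and passed in 5 of the 12 fits without 1 library (adjusted p up to 0.112). Eno3 was the largest part of that sum, which without it was 90.3 to 133 CPM in APOE-KO and 97.6 to 139 CPM in wildtype. Muscle genes too low to test had few reads, with 3 over APOE-KO and 30 over wildtype for Acta1, and 22 over APOE-KO and 42 over wildtype for Tnnc2, but 52 over APOE-KO and 18 over wildtype for Cox7a1. The part of muscle RNA in the result on Cox6a2 was not tested. Markers of cDC1 cells, another dendritic cell type, summed to 3088 to 3970 CPM in APOE-KO and 3606 to 5274 CPM in wildtype, and 0 of 11 passed in edgeR, DESeq2 or limma-voom (4 with an unadjusted p under 0.05). Wildtype library 1 held the highest cDC1 sum, of which Irf8, also a gene of plasmacytoid dendritic cells, made up 3117 CPM. Without Irf8 the sum was 1813 to 2100.1 CPM in APOE-KO and 1919 to 2311 CPM in wildtype, with 2157 CPM in wildtype library 1, inside the range of the other wildtype libraries. Of 12 tested cDC2 markers, Clec10a and Cd209d fell and Sirpa rose, Sirpa in 3 of the 12 fits without 1 library. The median log2 fold change of the cDC2 markers was -0.34, with 9 of 12 negative. They summed to 1234 to 1732 CPM in APOE-KO and 1388 to 1635 CPM in wildtype. Cd209d is also in the further list of plasmacytoid dendritic cell genes, which had a median of -0.32. Of 12 markers shared by dendritic cells 1 passed, the migration receptor gene Ccr7, a relative of Ccr9, which rose (1082 ± 147 CPM in APOE-KO and 699 ± 94.1 CPM in wildtype, SD, n = 6 each, adjusted p = 0.00444). T cell markers summed to 724 to 924 CPM in APOE-KO and 767 to 875 CPM in wildtype, both without Ccr9. Of these 16 genes 0 passed in edgeR, DESeq2 or limma-voom, with 1 at an unadjusted p under 0.05. All 8 tested NK cell markers were negative, with a median of -0.79, and 0 passed in edgeR, DESeq2 or limma-voom (2 with an unadjusted p under 0.05, and 5 with no adjusted p from DESeq2). Macrophage markers summed to 1069 to 1379 CPM in APOE-KO and 1186 to 1421 CPM in wildtype, with C1qb and Cd5l higher (C1qb in 4 of the 12 fits without 1 library) and Marco, Timd4 and Mrc1 lower. Endothelial and stromal markers, which bear on Tcf4, summed to 362 to 1281 CPM in APOE-KO and 480 to 1201 CPM in wildtype, with 0 of 8 passing in edgeR, DESeq2 or limma-voom (2 with an unadjusted p under 0.05, and 4 with no adjusted p from DESeq2). Plasma cell markers summed to 384 to 707 CPM in APOE-KO and 497 to 607 CPM in wildtype, with 0 of 8 at an unadjusted p under 0.05 in edgeR and 0 passing in DESeq2 or limma-voom.

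**Figure D5:**
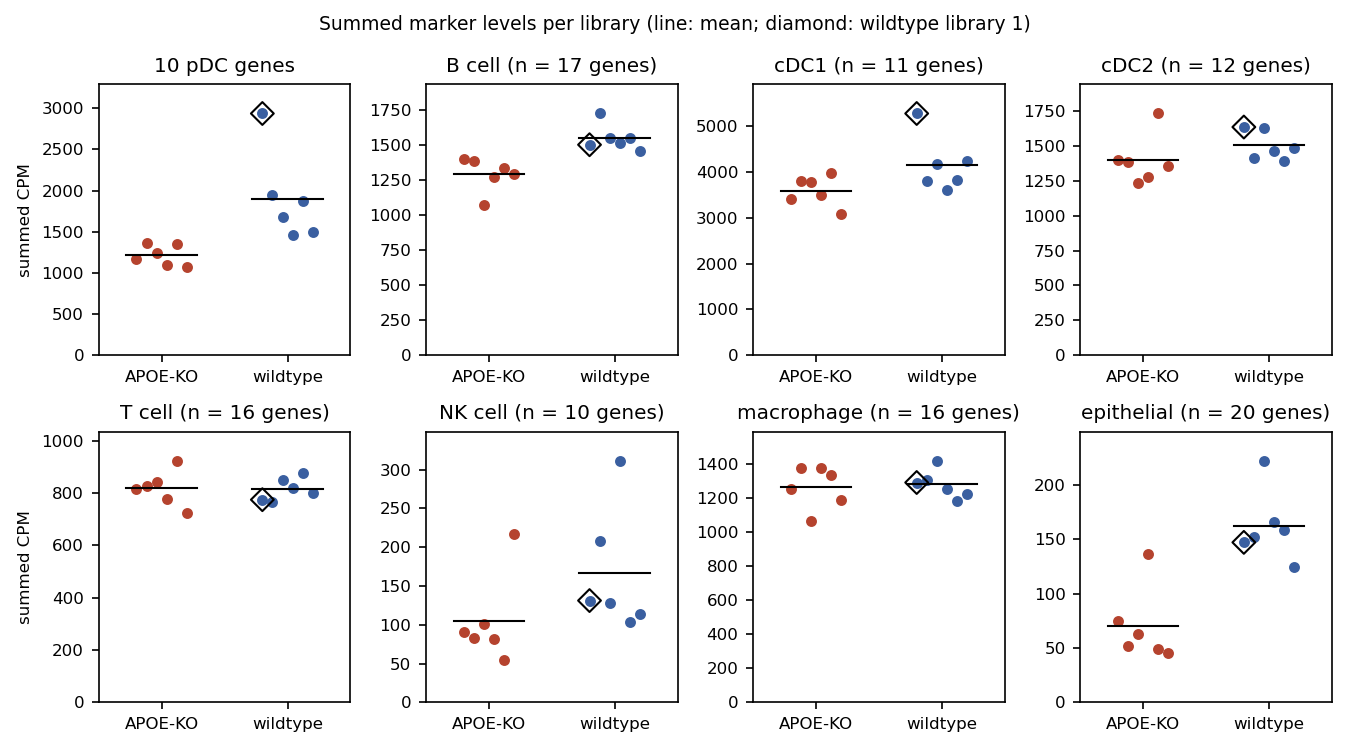
Summed CPM (vertical axes, from 0) of the 10 plasmacytoid dendritic cell genes and of 7 marker lists per library, APOE-KO left and wildtype right. Points are libraries, lines are means, and the diamond is wildtype library 1. The 10 genes and the B cell markers do not overlap between the genotypes, and wildtype library 1 is high for the 10 genes and, through Irf8 (3117 CPM of 5274 CPM there), for the cDC1 list.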

How the data were processed

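RNA from 12 libraries was sequenced from the 3' end (Lexogen 3' FWD), per the labels' protocols. The authors deposited whole-number read counts per gene symbol, not normalised, in 1 table. The submitters' processing notes name STAR 2.7.8a, featureCounts 1.5.1, R 4.1.0, DESeq2 1.4 and build mm10. The sources used here do not give the annotation, strand setting, treatment of multiply mapped reads or any use of molecular identifiers. Table columns carry the names in the samples' description labels.

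Counts were fitted in R 4.3.3 with edgeR 4.0.16 (filterByExpr, TMM factors, glmQLFit and glmQLFTest on genotype alone, Benjamini-Hochberg over 10714 genes, threshold 0.05). The biological coefficient of variation was 30.1%. Log2 fold changes are as fitted, and each SE equals the absolute log2 value divided by the square root of F. CPM values use TMM-scaled library sizes, and log2 CPM a prior count of 2. The fit was checked on simulated counts. Alternatives were DESeq2 1.42.0 (tool and size factors), limma-voom (limma 3.58.1), other filters, robust dispersion, a replicate block, Rn45s left out, covariates for B cell and epithelial markers, and each library left out in turn. Sums without Irf8 or Eno3 and the T cell list without Ccr9 were added after seeing the data. Floors cover counting error only. Within each genotype, every pair of libraries differed by more than sampling noise. The 10 genes, the gene lists and the tests were chosen with earlier results of these data known. Named genes are the 10 genes, the passing genes and 3 smallest p of the 4 related lists, listed relatives, passing cell type markers, Itgax and Apoe, and the 8 genes closest in pattern. The rule also allows up to 4 abundant markers a list, given here as sums. Chosen after their values were seen were Bst2, Irf8, Ly6c2, Plac8, Pld4, Ptprs, Tlr7, Tlr9, Tyrobp, Tspan13, Aqp5, Slc12a2, Prlr, Acta1, Tnnc2, Cox7a1 and the genes that overlap the 10.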

Additional observations from a re-analysis of the deposited data

Results flagged for a closer look

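The 15 plasmacytoid dendritic cell genes described by their calls (the 10 genes and the 5 further genes that passed) and the summed levels of 18 gene lists were examined for a library whose gap to its nearest neighbour took more of the range of its genotype than Dixon's 95% criterion for 6 values allows. Of 66 groups of 6 libraries, 13 held such a library, where chance gives about 1 in 20 for a group taken alone. The groups reuse the same 12 libraries and share genes, so the 13 are not independent of each other.

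Wildtype library 1 stood apart by its high level of Siglech (669 CPM), Tcf4 (954 CPM) and Cd209d (193 CPM), and by the sums of the 10 genes (2937 CPM), of the further plasmacytoid dendritic cell genes (7575 CPM) and of the partners and opponents of the lineage factors (6964 CPM), a sum that shares Irf8, Zeb2 and Cbfa2t3 with the one before. Without Irf8, a choice made after seeing the data, library 1 held 4458 CPM of the further genes, against at most 3428 CPM in the other wildtype libraries, and 3847 CPM of the partners and opponents, against at most 3803 CPM. Wildtype library 3 stood apart by Spib (186 CPM) and Pacsin1 (36.0 CPM). Wildtype library 2 did so by the B cell marker sum (1725 CPM). Among APOE-KO libraries, library 6 had the high NK cell marker sum (217 CPM), library 5 the high cDC2 marker sum (1732 CPM), and library 4 the high epithelial and salivary gland marker sums (136 and 232 CPM).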

How the results depend on the processing

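All 10 genes kept a negative log2 fold change under each of the 22 alternatives, and 190 of their 220 values kept their side of the threshold. That count includes genes that stayed uncalled. The rest were 25 lost calls, all of the 5 genes that fell, and 5 new calls. Of the 22 alternatives, Klk1 passed in 21, Runx2 in 20, Siglech in 19, Cox6a2 in 15 and Bcl11a in 10. The median over the 10 genes ran from -0.70 to -0.52 in the fits without 1 library. Leaving out 1 library gave 3 to 6 calls among the 10 genes (3 when wildtype library 1 or APOE-KO library 1, 4 or 6 was left out), 2 to 6 among the further plasmacytoid dendritic cell genes (1 to 5 lower; 1 lower when wildtype library 5 or APOE-KO library 3 or 6 was left out, 2 lower without wildtype library 1), and 99 to 230 over all genes (72 to 166 higher, 27 to 64 lower; 99 without APOE-KO library 3, and 27 lower without it or wildtype library 5, 29 lower without APOE-KO library 6). In the table of all genes, where 160 passed, DESeq2 called 274 (187 higher, 87 lower), 8 of the 10 genes (Ccr9, Ly6d and Tcf4 in addition) and 8 further genes (7 lower). With no filter on low counts 68 genes fell, and 8 further genes passed (7 lower). The covariate for B cell markers left 29 genes (15 higher, 14 lower), 2 of the 10 and 1 further gene (0 higher, 1 lower). That for epithelial markers left 29 genes (21 higher, 8 lower), 0 of the 10 and 2 further genes (0 higher, 2 lower). The cause was not tested. The call of Siglech ended under robust dispersion (adjusted p = 0.0865) and that of Cox6a2 under limma-voom (0.0876). The labels give both genotypes replicate numbers 1 to 6, but same-numbered libraries did not deviate together (correlation of their deviations over genes from -0.077 to 0.0185). With a replicate block 100 genes passed (70 higher), 3 of the 10 (Siglech, Runx2 and Klk1) and 3 further genes (2 lower). Depth limits Tlr9 and the interferon ligand genes.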
